A study of Homo sapiens with 6 samples.

Results

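The genes described here are 36 genes of glycolysis and of the response to low oxygen, chosen by name among the 60623 genes in the files. They comprised 17 glycolytic enzymes, 4 glucose and lactate transporters, 2 PFKFB enzymes that set the level of a glycolytic activator, 11 targets of the hypoxia-inducible factors (HIF) outside glycolysis, and 2 HIF alpha subunits. RNA sequencing covered 6 libraries of cells labelled hepatoblasts at day 19, grown from human embryonic stem cells of the H9 line on the way to hepatocytes. Cells of 3 libraries received HFPO-TA, the trimer acid of hexafluoropropylene oxide and a perfluoroalkyl ether acid, and the cells of the other 3 received 0.1% DMSO as vehicle. The HFPO-TA dose is given as 10, but its unit is garbled, and a DMSO share is recorded for the vehicle libraries only. All 6 libraries came from 1 cell line, and nothing states whether the 3 of a group were grown separately. The p-values therefore reflect library-to-library spread, possibly of technical origin. The series addresses liver toxicity of HFPO-TA, and the comparison is of RNA levels with and without it.

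Glycolysis splits glucose into pyruvate, which lactate dehydrogenase can turn into lactate. When oxygen is low, the HIF alpha subunits escape hydroxylation by the EGLN enzymes and recognition by VHL, pair with ARNT and bind short DNA elements with the core ACGTG or GCGTG. Their targets include most glycolytic genes and also genes for vessel growth, mitophagy, pH control and collagen hydroxylation. Adult hepatocytes favour the pyruvate kinase PKLR, while fetal and dividing cells use PKM.

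Windows of 250 bases upstream of a RefSeq start (GRCh38.p14) are shown for 5 of these genes, 5′ to 3′ on the gene's own strand. ALDOC, LDHB and EGLN3 are shown as examples of genes whose libraries parted by treatment, LDHA (the first of its 2 listed starts) as the partner of LDHB, and BNIP3 as a HIF target whose groups overlapped. Capitals mark ACGTG and GCGTG on this strand and CACGT and CACGC, the same letters on the other strand; CACGTG holds a match on each strand.
ALDOC, chr17:28576896-28577145, minus strand: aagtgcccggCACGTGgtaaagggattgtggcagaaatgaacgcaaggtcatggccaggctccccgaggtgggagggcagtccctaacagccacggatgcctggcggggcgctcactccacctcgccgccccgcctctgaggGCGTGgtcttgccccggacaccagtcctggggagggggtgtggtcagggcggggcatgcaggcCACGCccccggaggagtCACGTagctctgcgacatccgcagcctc
LDHA, chr11:18394313-18394562, plus strand: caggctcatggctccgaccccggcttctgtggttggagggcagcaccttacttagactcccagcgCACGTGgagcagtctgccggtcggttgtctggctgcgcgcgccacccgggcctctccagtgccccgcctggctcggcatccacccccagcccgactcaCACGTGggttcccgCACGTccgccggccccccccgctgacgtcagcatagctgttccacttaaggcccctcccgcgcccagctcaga
LDHB, chr12:21657843-21658092, minus strand: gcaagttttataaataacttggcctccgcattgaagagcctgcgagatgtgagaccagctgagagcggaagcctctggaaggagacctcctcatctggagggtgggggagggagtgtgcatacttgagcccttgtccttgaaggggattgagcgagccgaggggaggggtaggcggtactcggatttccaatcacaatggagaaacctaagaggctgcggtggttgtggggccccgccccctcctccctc
EGLN3, chr14:33951075-33951324, minus strand: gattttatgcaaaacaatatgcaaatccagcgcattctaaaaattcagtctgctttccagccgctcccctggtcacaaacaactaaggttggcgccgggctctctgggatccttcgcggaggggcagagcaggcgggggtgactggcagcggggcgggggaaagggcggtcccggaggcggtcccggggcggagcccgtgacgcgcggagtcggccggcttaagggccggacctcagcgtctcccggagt
BNIP3, chr10:131981924-131982173, minus strand: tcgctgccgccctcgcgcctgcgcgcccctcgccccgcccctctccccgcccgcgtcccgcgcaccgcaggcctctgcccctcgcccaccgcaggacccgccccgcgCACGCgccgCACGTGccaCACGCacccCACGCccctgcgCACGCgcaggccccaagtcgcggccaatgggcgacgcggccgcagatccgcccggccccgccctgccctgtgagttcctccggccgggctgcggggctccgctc

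The ALDOC window held 5 matches, the LDHA window 5 and the BNIP3 window 6, while the LDHB and EGLN3 windows held 0. PFKFB3, whose libraries also parted, had 2 windows, with 1 match and 2 matches. The RefSeq table gave a window for 32 of the 36 genes, and SLC2A3, VEGFA, NDRG1 and BNIP3L were not analysed here in this respect. Several genes have more than 1 start, and 27 of the 32 genes held a match in at least 1 window (84.4%, against 47.4% of the 27305 genes in the table, which may differ in their number of windows). Counted by window, 61.0% of the 59 windows of these genes held a match, against 43.2% of all 35116 windows in the table. A match is a run of letters only, and its absence says nothing beyond these 250 bases.

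The cells expressed hepatoblast genes. The 10 hepatocyte and hepatoblast markers, AFP among them, were each at 1 TPM (a level per transcript length, scaled to nearly the same total in every library) or more in every library and summed to between 105600 and 114700 TPM with HFPO-TA and between 115700 and 129000 TPM with DMSO. That sum, most of it AFP, was lower in every HFPO-TA library. AFP, ALB, TTR, APOB, HNF4A and FGB each lay lower in every HFPO-TA library than in any DMSO library, as did 9.4% of tested genes. Of these, FGB was called lower (log2 fold change -0.97, limma adjusted p = 0.0104), as were 0.306% of all tested genes. Of the 6 fits that each leave out 1 library, 3 called FGB. APOA2, another of the 10, was higher in every HFPO-TA library, at 7099 to 9126 TPM against 4518 to 5679 TPM with DMSO (limma adjusted p = 0.089). Among all tested genes 8.55% lay higher in this way. The libraries of APOA1, SERPINA1 and TF overlapped between groups. The 5 markers of endoderm and gut summed to 305 to 319 TPM with HFPO-TA and 331 to 352 TPM with DMSO, also without overlap. The 5 biliary markers summed to 1231 to 1362 TPM with HFPO-TA and 1297 to 1316 TPM with DMSO, and overlapped. All markers of both lists were at 1 TPM or more in every library, so hepatoblast genes were not the only endodermal ones expressed. The part of these markers in the differences below was not tested. Stromal and stellate markers were also present: 8 of 8 were at 1 TPM or more in every library, and they summed to 2500, 1309 and 1303 TPM in HFPO-TA replicates 1, 2 and 3, against 2218, 1533 and 1740 TPM in DMSO replicates 1, 2 and 3. Replicate 1 stood highest in both groups. A letter in the column headers, which nothing explains, parts replicate 1 from replicates 2 and 3 in both groups. In bulk RNA, fewer cells of a type and less RNA per cell cannot be told apart.

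None of the 36 genes was called changed. Of the 35 that passed the filter on low values (at least 1 TPM in 3 or more libraries), 0 had an adjusted p under 0.05 in limma's test on log2(TPM + 1), where 0.492% of all 15664 tested genes did. The smallest adjusted p among the 35 was 0.113. At an unadjusted p under 0.05 there were 6 of the 35 genes, 2 higher (LDHB and NDRG1) and 4 lower (ALDOC, SLC2A3, PFKFB3 and EGLN3) with HFPO-TA, and 12% of all tested genes met that mark. In 7 of the 35 the libraries of the groups did not overlap, which is 20.0% against 17.9% of all tested genes. LDHB, VEGFA and NDRG1 lay higher with HFPO-TA, as did 8.55% of all tested genes, and ALDOC, SLC2A3, PFKFB3 and EGLN3 lay lower, as did 9.4%. Both the higher and the lower share lay near that of all genes, at 3 and 4 of the 35. The 95% interval of the log2 fold change (HFPO-TA minus DMSO) lay within 1 of 0 for 34 of the 35 genes, all but SLC2A1, and within 0.5 for 26.

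**Figure D1:**
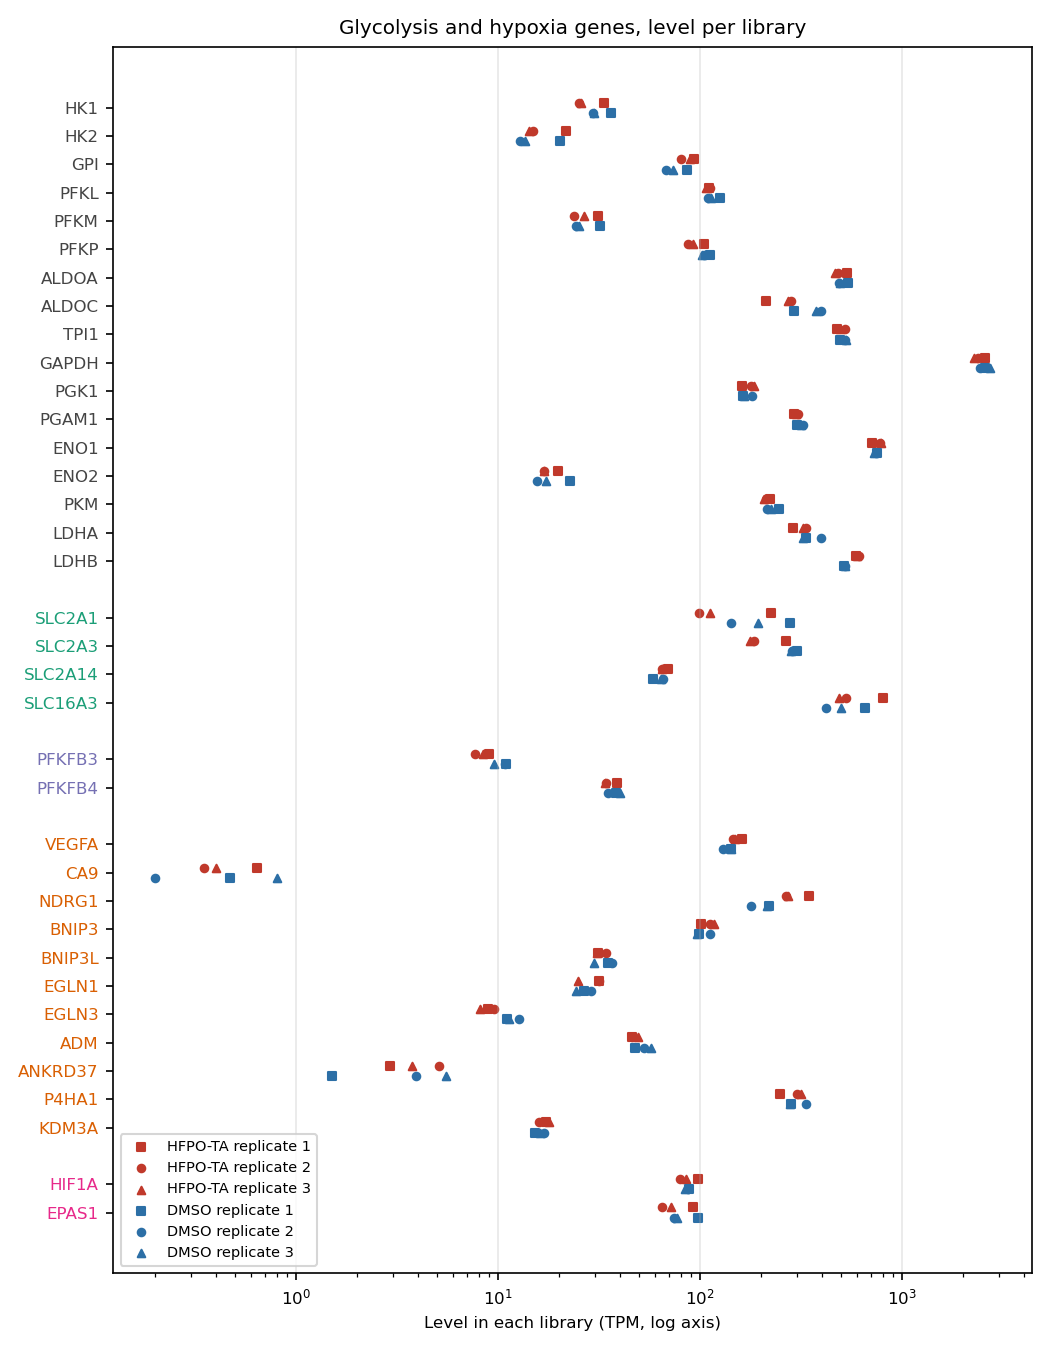
Level of each of the 36 genes in each library, in TPM on a log axis; each point is 1 library, HFPO-TA above and DMSO below on each row, and label colours part enzymes, transporters, PFKFB enzymes, other HIF targets and HIF alpha subunits. Levels run from CA9, under 1 TPM in every library, to GAPDH, at 2255 TPM or more in every library.

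Sums over the gene groups and shares within families of related genes were compared in 31 exact 2-sided permutation tests over libraries. In 7 of them the groups did not overlap, each with p = 0.1, the smallest that 3 against 3 libraries allow, and a Benjamini-Hochberg adjusted p of 0.443 over the 31 exact tests. Among the 7, the shares of PKM and PKLR mirror each other, as do those of LDHA and LDHB, so each such pair repeats a single result.

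Glycolytic enzymes took 0.647%, 0.646% and 0.628% of all TPM in HFPO-TA replicates 1, 2 and 3, against 0.664%, 0.660% and 0.680% in DMSO replicates 1, 2 and 3. The groups did not overlap (exact permutation p = 0.1). Most of that gap was GAPDH, the most abundant of the 17: without it the shares were 0.390%, 0.408% and 0.401% with HFPO-TA and 0.408%, 0.415% and 0.406% with DMSO, and the groups overlapped (exact permutation p = 0.3). GAPDH itself averaged 2397 ± 154 TPM with HFPO-TA and 2572 ± 147 TPM with DMSO (SD, n = 3 each; log2 fold change -0.10, limma adjusted p = 0.591).

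The other enzymes spanned a wide range of levels. ENO1, the main enolase, averaged 757 ± 42.9 TPM with HFPO-TA and 739 ± 13.7 TPM with DMSO. TPI1, which interconverts the triose phosphates, averaged 495 ± 23.9 and ALDOA, the widespread aldolase, 493 ± 33.7 TPM with HFPO-TA, against 511 ± 19.1 and 506 ± 26.6 TPM with DMSO. PGAM1, a phosphoglycerate mutase, averaged 298 ± 8.44 and PGK1, a phosphoglycerate kinase that makes ATP, 174 ± 12.5 TPM with HFPO-TA, against 314 ± 10.9 and 169 ± 9.48 TPM with DMSO (SD, n = 3 each throughout). The log2 fold changes of these 5 genes ran from -0.07 to 0.04, and their groups overlapped. Processed pseudogenes named after these genes held little of the signal: 62 GAPDH copies summed to at most 0.107% of GAPDH, and 13 PGAM1 copies to at most 0.362% of PGAM1.

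The pathway begins with hexokinases, here mainly HK1 and HK2, that trap glucose in the cell. HK1 averaged 28.1 ± 4.69 TPM with HFPO-TA and 31.8 ± 3.76 TPM with DMSO, and HK2 averaged 16.9 ± 4.14 TPM with HFPO-TA and 15.5 ± 4.08 TPM with DMSO (SD, n = 3 each). HK2 stood at 21.7, 14.9 and 14.2 TPM in HFPO-TA replicates 1, 2 and 3, against 20.2, 12.8 and 13.5 TPM in DMSO replicates 1, 2 and 3. Replicate 1 was the highest of its group under both conditions, by 0.56 on the log2 scale on average, while the treatment difference was 0.12 (adjusted p = 0.875).

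GPI, which turns glucose 6-phosphate into fructose 6-phosphate, stood at 92.8, 80.3 and 89.1 TPM with HFPO-TA, against 86.4, 67.7 and 73.1 TPM with DMSO. The groups overlapped, and the log2 fold change of 0.21 (SE 0.10) did not pass (limma adjusted p = 0.465). The phosphofructokinases, which commit the sugar to glycolysis, were mainly PFKL and PFKP. PFKL averaged 110 ± 2.54 TPM with HFPO-TA and 116 ± 7.96 TPM with DMSO, PFKM 27.2 ± 3.70 and 27.1 ± 4.27 TPM in the same order (SD, n = 3 each). PFKP stood at 104, 86.8 and 92.2 TPM with HFPO-TA, against 112, 105 and 102 TPM with DMSO, so that 1 HFPO-TA library reached into the DMSO range (log2 fold change -0.17, SE 0.08, adjusted p = 0.449).

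ALDOC, the aldolase best known from brain (chromosome 17, 28573115 to 28577264, minus strand, GENCODE 29 on GRCh38), stood at 211, 281 and 273 TPM in HFPO-TA replicates 1, 2 and 3, against 292, 394 and 375 TPM in DMSO replicates 1, 2 and 3. Every HFPO-TA library lay below every DMSO library, and replicate 1 was the lowest in each group. The log2 fold change was -0.47 (SE 0.15) and did not pass (limma adjusted p = 0.258). A gene on the same strand, AC005726.1, overlaps ALDOC and stood at 3.33 to 5.35 TPM. The difference was -0.47 in replicate 1 and -0.47 in replicates 2 and 3. With a term for the header letter ALDOC was called lower (adjusted p = 0.0107), and likewise in replicates 2 and 3 alone (adjusted p = 0.0253), where 0.862% and 0.907% of all tested genes were called lower.

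LDHB, the lactate dehydrogenase subunit of heart-type tetramers (chromosome 12, 21635342 to 21757857, minus strand), stood at 589, 610 and 595 TPM with HFPO-TA, against 515, 519 and 521 TPM with DMSO. Every HFPO-TA library lay above every DMSO library, and the spread within a group was small. LDHB had the smallest p of the 35 tested genes, with a log2 fold change of 0.21 (SE 0.05, limma adjusted p = 0.113), and it was not called with the term for the header letter (adjusted p = 0.0511) or in replicates 2 and 3 (adjusted p = 0.0834). LDHA, the muscle-type subunit, stood at 288, 333 and 323 TPM with HFPO-TA, against 333, 395 and 324 TPM with DMSO, and overlapped (log2 fold change -0.15, SE 0.09, adjusted p = 0.565).

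Of the summed LDHA and LDHB TPM, LDHB held 67.2%, 64.7% and 64.8% with HFPO-TA, against 60.8%, 56.8% and 61.6% with DMSO. The shares did not overlap, with a difference of 5.85 percentage points (exact permutation p = 0.1). The sum of the pair overlapped between groups, at 877 to 943 TPM with HFPO-TA and 845 to 914 TPM with DMSO.

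**Figure D2:**
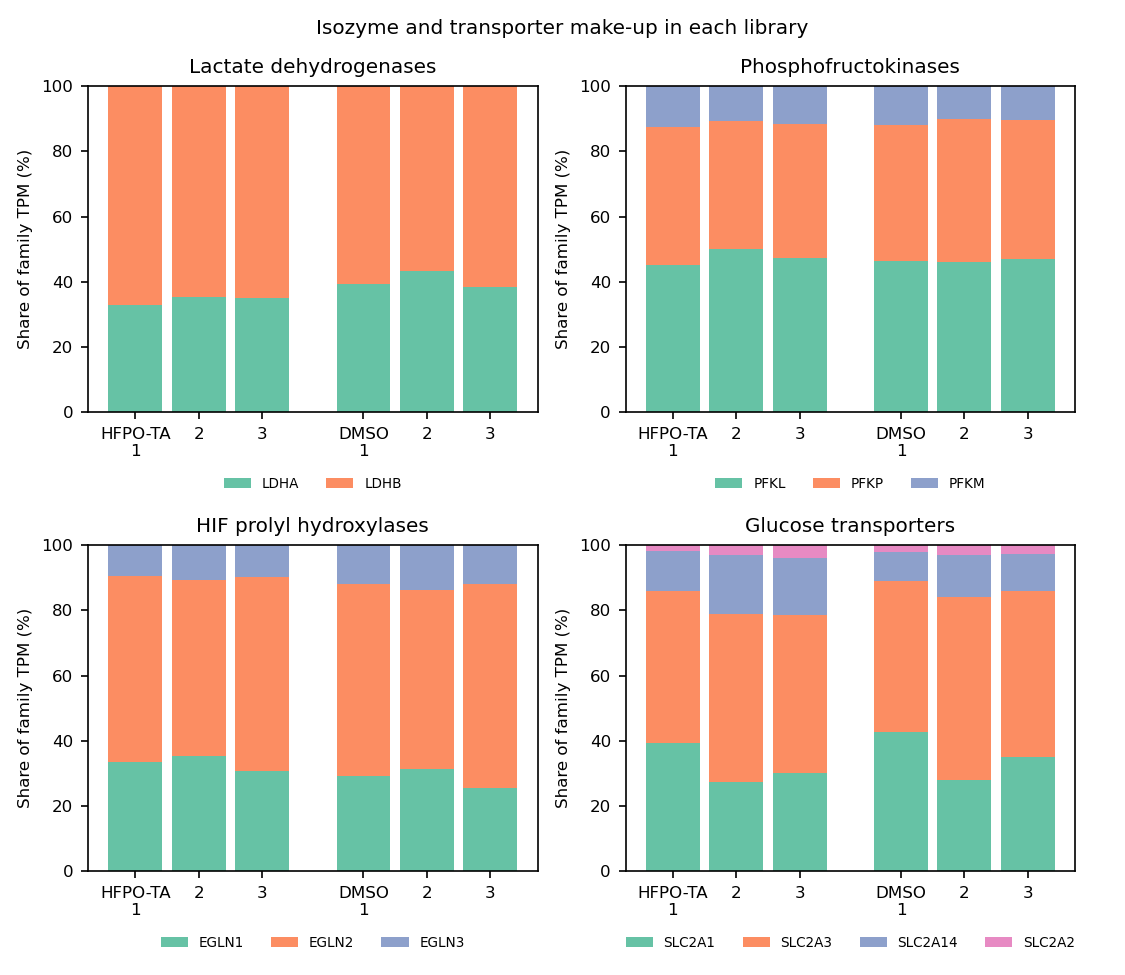
Stacked bars give each gene's share, in percent, of the summed TPM of its family in each library, with HFPO-TA replicates 1 to 3 left and DMSO replicates 1 to 3 right. The LDHB part is larger in every HFPO-TA library (64.7% or more) than in any DMSO library (61.6% or less), the EGLN3 part is smaller with HFPO-TA (10.77% or less) than with DMSO (11.96% or more), and the phosphofructokinase and glucose transporter shares overlap.

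At the end of the pathway, PKM, the pyruvate kinase of fetal and dividing cells, averaged 213 ± 6.57 TPM with HFPO-TA and 227 ± 15.9 TPM with DMSO, and ENO2, the neuronal enolase, 17.8 ± 1.67 and 18.5 ± 3.75 TPM in the same order (SD, n = 3 each). PKLR, the liver pyruvate kinase, was low at 3.08, 3.66 and 3.78 TPM with HFPO-TA, against 4.57, 8.04 and 6.39 TPM with DMSO. The PKLR libraries did not overlap, and its log2 fold change of -0.68 (SE 0.19) did not pass (limma adjusted p = 0.208). PKM made up 98.6%, 98.3% and 98.2% of pyruvate kinase TPM with HFPO-TA, against 98.2%, 96.4% and 97.2% with DMSO, without overlap, and PKLR the rest.

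Among the transporters, SLC2A1 (GLUT1), the widespread glucose carrier, stood at 223, 98.7 and 111 TPM in HFPO-TA replicates 1, 2 and 3, against 277, 142 and 193 TPM in DMSO replicates 1, 2 and 3. The groups overlapped, and replicate 1 was high in both, by 0.91 on the log2 scale, more than the treatment difference of -0.54 (SE 0.39, limma adjusted p = 0.675). SLC16A3, the lactate exporter MCT4, was likewise highest in replicate 1 of each group, at 804, 525 and 489 TPM with HFPO-TA against 657, 421 and 500 TPM with DMSO (log2 fold change 0.19, SE 0.24, adjusted p = 0.826; replicate 1 higher by 0.59). CSNK1D, on the opposite strand to SLC16A3 and overlapping it, stood at 69.2 to 87.1 TPM. The stromal markers given above were highest in the same 2 libraries, and their part in these values was not tested.

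SLC2A3 (GLUT3), a glucose carrier of high affinity (chromosome 12, 7919230 to 7936275, minus strand), stood at 265, 185 and 177 TPM in HFPO-TA replicates 1, 2 and 3, against 300, 286 and 282 TPM in DMSO replicates 1, 2 and 3. The groups did not overlap, and HFPO-TA replicate 1 lay nearest to the DMSO libraries. The log2 fold change was -0.49 (SE 0.14) and did not pass (limma adjusted p = 0.241). The difference was -0.18 in replicate 1 and -0.65 in replicates 2 and 3, where SLC2A3 was called lower (adjusted p = 0.0151), as were 0.907% of all tested genes. It was also called without HFPO-TA replicate 1 alone (adjusted p = 0.00532), where 291 of all 15664 tested genes were called. With the term for the header letter SLC2A3 was not called (adjusted p = 0.0724).

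SLC2A14 (GLUT14), a duplicate of SLC2A3 on the same chromosome (7812512 to 7891148, minus strand), stood at 69.5, 64.8 and 64.8 TPM with HFPO-TA, against 58.3, 65.3 and 63.8 TPM with DMSO. Its groups overlapped (log2 fold change 0.09, SE 0.07, adjusted p = 0.706). Its coding sequence matched that of SLC2A3 at 96.78% of 1491 aligned bases in GENCODE 29 transcripts, with 48 differences, so reads of the pair can be split wrongly and both values are uncertain. The stretch of 120 bases with the most differences is shown to let the pair be compared; capitals mark the 10 bases that differ, and positions count from the first base of the start codon.
SLC2A3, coding bases 552 to 671: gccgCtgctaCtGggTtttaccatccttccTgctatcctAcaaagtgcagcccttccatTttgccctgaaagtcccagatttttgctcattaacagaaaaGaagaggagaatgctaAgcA
SLC2A14, coding bases 669 to 788: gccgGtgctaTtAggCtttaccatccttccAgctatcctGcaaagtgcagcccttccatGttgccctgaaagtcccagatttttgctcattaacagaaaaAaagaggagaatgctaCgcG

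Of all runs of 75 bases in the SLC2A3 coding sequence, 14.8% occur unchanged in a SLC2A14 transcript, and of runs of 150 bases 0% do. NANOGP1, a pseudogene of NANOG, overlaps the start of the SLC2A14 gene on the opposite strand, and whether the libraries kept strand is not given in the sources used here. NANOGP1 stood at 10.2, 9.51 and 8.09 TPM with HFPO-TA, against 25.1, 21.7 and 19.1 TPM with DMSO, and was called lower (log2 fold change -1.16, SE 0.13, limma adjusted p = 0.0186). Of the 6 fits that each leave out 1 library, 2 called it.

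The PFKFB enzymes make and remove fructose 2,6-bisphosphate, the activator of phosphofructokinase. PFKFB3, an isozyme with strong kinase activity, stood at 9.04, 7.65 and 8.42 TPM with HFPO-TA, against 10.9, 10.8 and 9.49 TPM with DMSO. The groups did not overlap, and the log2 fold change of -0.28 (SE 0.11) did not pass (limma adjusted p = 0.379). PFKFB4 stood at 38.8, 34.4 and 33.8 TPM with HFPO-TA, against 38.5, 34.8 and 39.9 TPM with DMSO, and overlapped (log2 fold change -0.08, SE 0.09, adjusted p = 0.792).

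Of the 11 HIF targets outside glycolysis, NDRG1, a gene of growth arrest and stress, had the largest difference. It stood at 344, 264 and 271 TPM in HFPO-TA replicates 1, 2 and 3, against 220, 179 and 215 TPM in DMSO replicates 1, 2 and 3. Every HFPO-TA library lay above every DMSO library. The log2 fold change was 0.51 (SE 0.12) and did not pass (limma adjusted p = 0.133). With the term for the header letter NDRG1 was called higher (adjusted p = 0.0415), as were 0.46% of all tested genes; it was not called in replicates 2 and 3 alone (0.45 on the log2 scale, adjusted p = 0.0926), and the difference in replicate 1 was 0.64.

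VEGFA, the main growth factor of blood vessels, stood at 162, 145 and 149 TPM with HFPO-TA, against 142, 129 and 143 TPM with DMSO. The groups did not overlap, with a gap of little more than 2 TPM between the nearest libraries (log2 fold change 0.14, SE 0.07, limma adjusted p = 0.491). AL136131.3, a short antisense gene inside VEGFA, was listed at 53.9, 0 and 0 TPM with HFPO-TA and at 81.2, 0 and 2.74 TPM with DMSO, so the level of VEGFA is uncertain where strand is unknown. Summed over the 11 targets, the share of all TPM was 0.0998%, 0.0971% and 0.0992% with HFPO-TA, against 0.0881%, 0.0908% and 0.0881% with DMSO, with no overlap (exact permutation p = 0.1). Without NDRG1 the shares were 0.0653%, 0.0705% and 0.0720% with HFPO-TA and 0.0661%, 0.0729% and 0.0665% with DMSO, and the groups overlapped (exact permutation p = 1.0), so the gap in the sum was that of NDRG1.

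EGLN1 and EGLN3 are prolyl hydroxylases that sense oxygen and are themselves HIF targets. EGLN3 stood at 8.93, 9.56 and 8.08 TPM with HFPO-TA, against 11.01, 12.69 and 11.27 TPM with DMSO. Every HFPO-TA library lay below every DMSO library (log2 fold change -0.36, SE 0.11, limma adjusted p = 0.249). In GENCODE 29 the EGLN3 gene (chromosome 14, 33924231 to 34462774, minus strand) spans SPTSSA on the same strand, which stood at 36.4 to 42.5 TPM, so reads may be shared. EGLN1, the main HIF prolyl hydroxylase, stood at 31.7, 31.5 and 24.9 TPM with HFPO-TA, against 26.6, 28.8 and 24.2 TPM with DMSO, and its groups overlapped (log2 fold change 0.14, SE 0.12, adjusted p = 0.72). EGLN3 held 9.41%, 10.77% and 9.95% of the TPM of EGLN1, EGLN2 and EGLN3 with HFPO-TA, against 12.03%, 13.74% and 11.96% with DMSO, with no overlap (exact permutation p = 0.1).

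The remaining HIF targets overlapped between groups. BNIP3 and BNIP3L, receptors of mitophagy, averaged 110 ± 8.58 and 32.0 ± 1.95 TPM with HFPO-TA, against 102 ± 8.10 and 33.7 ± 3.41 TPM with DMSO. BNIP3 has 39 pseudogenes by name, which summed to between 0.928% and 9.54% of its own level. ADM, which encodes the vasodilator adrenomedullin, averaged 47.0 ± 1.74 TPM with HFPO-TA and 52.4 ± 4.75 TPM with DMSO. P4HA1, a subunit of collagen prolyl hydroxylase, averaged 289 ± 35.1 TPM with HFPO-TA and 297 ± 31.5 TPM with DMSO, and KDM3A, a histone demethylase, 17.1 ± 1.02 and 16.1 ± 0.87 TPM in the same order (SD, n = 3 each).

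ANKRD37 and CA9, both used as reporters of hypoxia, were low. ANKRD37, a small ankyrin-repeat gene, stood at 2.91, 5.08 and 3.73 TPM in HFPO-TA replicates 1, 2 and 3, against 1.51, 3.91 and 5.50 TPM in DMSO replicates 1, 2 and 3. Replicate 1 was the lowest of each group, opposite to SLC2A1, and the groups overlapped (log2 fold change 0.16, SE 0.35, limma adjusted p = 0.905). CA9, a carbonic anhydrase, stood at 0.64, 0.35 and 0.40 TPM with HFPO-TA, against 0.47, 0.20 and 0.80 TPM with DMSO, and was the 1 gene of the 36 below the filter.

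HIF1A and EPAS1, the alpha subunits HIF-1 alpha and HIF-2 alpha, are controlled mainly at the protein level, which RNA levels do not show. HIF1A stood at 97.37, 79.54 and 84.95 TPM with HFPO-TA, against 87.9, 87.1 and 84.3 TPM with DMSO (log2 fold change 0.01, 95% interval -0.18 to 0.20, limma adjusted p = 0.981). EPAS1 stood at 91.7, 64.6 and 71.7 TPM with HFPO-TA, against 97.2, 74.1 and 77.2 TPM with DMSO (log2 fold change -0.13, 95% interval -0.47 to 0.22, adjusted p = 0.806). Both pairs of groups overlapped, and EPAS1 was highest in replicate 1 of each group.

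**Figure D3:**
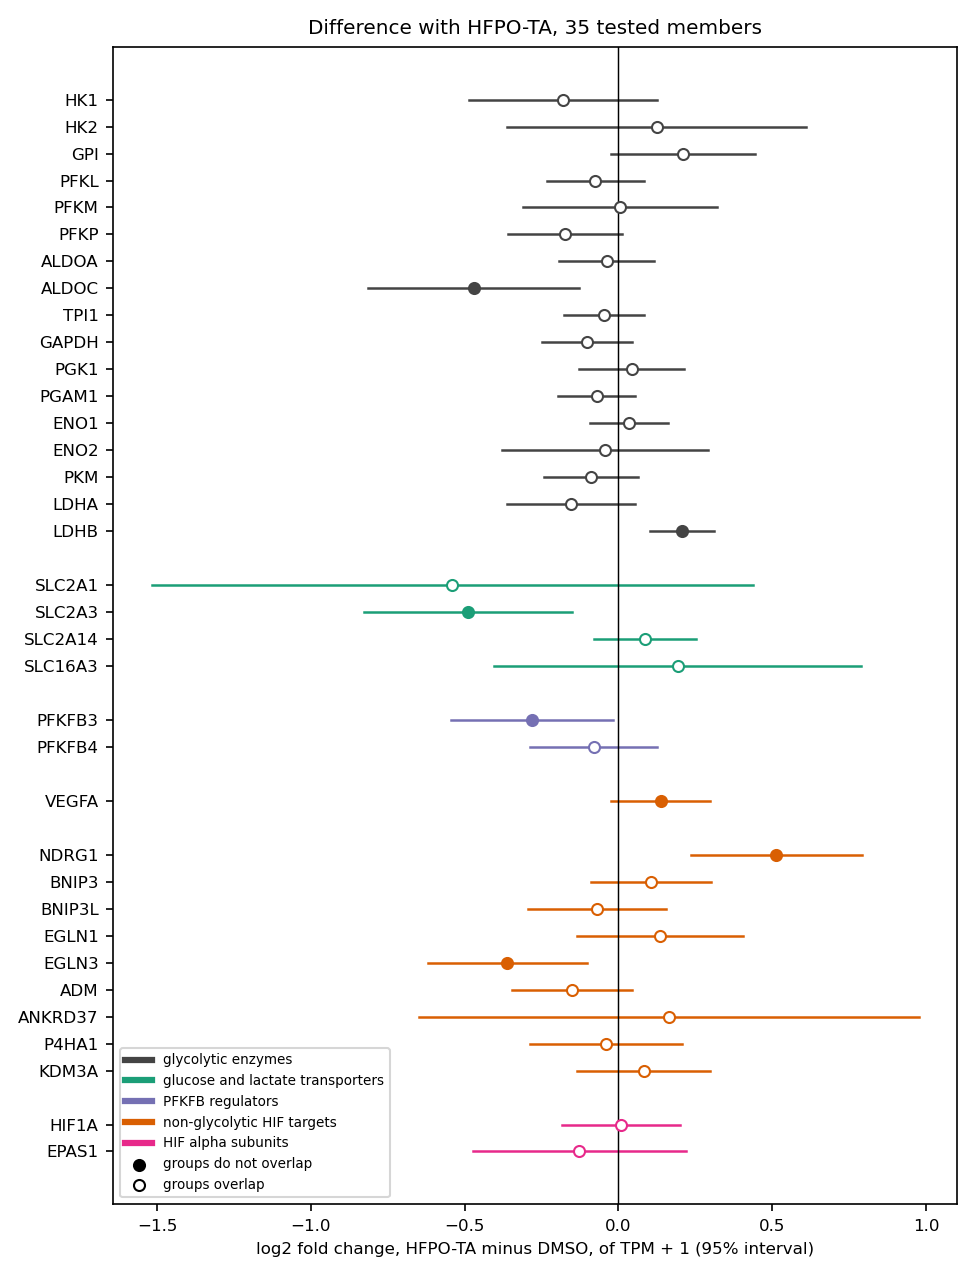
Points give the log2 fold change of TPM + 1, HFPO-TA minus DMSO, for the 35 genes that passed the filter, with limma's 95% interval as a line and colours for the gene groups. Filled points mark the 7 genes whose libraries did not overlap: LDHB, NDRG1 and VEGFA on the higher side, and ALDOC, SLC2A3, PFKFB3 and EGLN3 on the lower side.

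Set side by side, the glycolysis genes and the other HIF targets had medians on either side of 0. The median log2 fold change of the 23 enzymes, transporters and PFKFB genes was -0.07, with 8 of 23 above 0, and that of the 10 tested HIF targets outside glycolysis was 0.09, with 6 of 10 above 0. Over all tested genes the median was -0.01, and 48.3% lay above 0. The median deviation of the 23 glycolysis genes from the DMSO mean was -0.004, -0.071 and -0.113 in HFPO-TA replicates 1, 2 and 3, against 0.066, -0.049 and -0.035 in DMSO replicates 1, 2 and 3. For the HIF targets the values were -0.065, 0.050 and 0.103 with HFPO-TA, against -0.064, 0.115 and -0.018 with DMSO. Both sets of values overlapped between groups, and the median of the HIF targets was -0.001 without DMSO replicate 1, against 0.09 with all libraries.

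**Figure D4:**
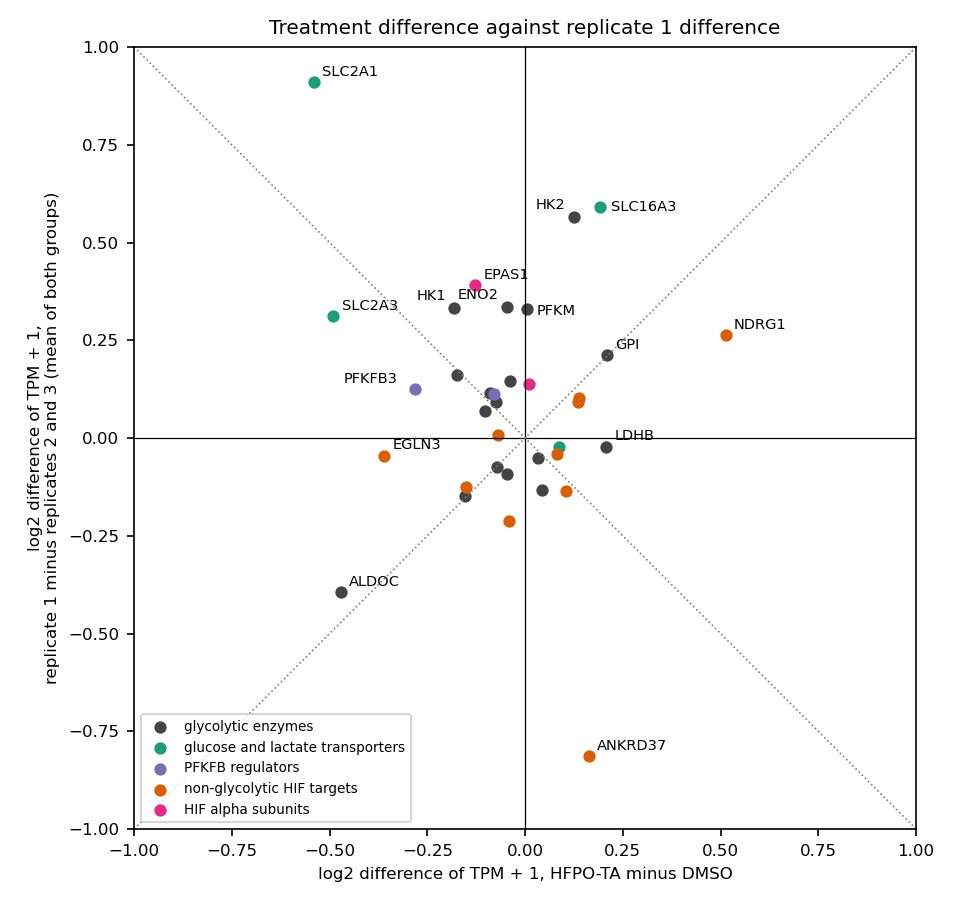
Each point is 1 of the 35 tested genes; the horizontal axis gives the log2 difference HFPO-TA minus DMSO and the vertical axis the log2 difference of replicate 1 from replicates 2 and 3, averaged over both groups, with dotted lines where the 2 are equal in size. SLC2A1 (0.91), SLC16A3 (0.59) and HK2 (0.56) lie far up and ANKRD37 (-0.81) far down, while LDHB and EGLN3 lie near 0 on that axis.

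Replicate 1 differed from replicates 2 and 3 in many of the genes. In 20 of the 35 genes, or 57.1%, the difference of replicate 1 from replicates 2 and 3 was larger in size than the treatment difference, as it was in 53.6% of all tested genes. Within the enzymes this held for 12 of 17, and within the HIF targets for 3 of 10. With the term for the header letter 2 of the 35 genes were called (ALDOC lower and NDRG1 higher), against 1.32% of all tested genes, and in replicates 2 and 3 alone 2 were called, ALDOC and SLC2A3, both lower, against 1.42% of all tested genes. Replicate 1, with a single library in each group, allows no test.

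Other genes of the pathway were taken from 3 lists of 86 genes, of which 75 passed the filter and 0 were called (0.306% of all tested genes were called lower and 0.185% higher). At an unadjusted p under 0.05, 1 of the other isozymes and transporters was higher and 1 lower with HFPO-TA. At this mark 1 gene of the HIF machinery was higher and 1 lower, and 4 of the other HIF targets were higher and 3 lower. The same mark was met by 12% of all 15664 tested genes, 854 upward and 1028 downward. Of the other glycolytic isozymes and transporters, 14 were tested and their median log2 fold change was 0.02. In 14.3% of the 14 the libraries of the groups did not overlap, 1 higher and 1 lower with HFPO-TA, against 17.9% of all tested genes. PFKFB2, the heart-type PFKFB enzyme, averaged 12.7 ± 2.15 TPM with HFPO-TA and 9.68 ± 0.27 TPM with DMSO (limma adjusted p = 0.324), and HKDC1, a hexokinase-like enzyme, 9.16 ± 3.47 and 5.84 ± 0.46 TPM in the same order (adjusted p = 0.487). SLC2A2 (GLUT2), the hepatocyte glucose carrier, averaged 12.3 ± 1.92 TPM with HFPO-TA and 14.9 ± 1.19 TPM with DMSO (SD, n = 3 each; limma adjusted p = 0.469).

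Of the 13 genes of the HIF machinery, all were tested, with a median of -0.09. In 1 of them, or 7.69%, the libraries of the groups did not overlap, against 17.9% of all tested genes. HIF1AN, the asparaginyl hydroxylase that blocks HIF transactivation, averaged 10.97 ± 1.57 TPM with HFPO-TA and 13.68 ± 1.04 TPM with DMSO, without overlap (limma adjusted p = 0.396), and CITED2, which competes with HIF for its coactivators, had a log2 fold change of -0.24 (adjusted p = 0.5). ELOC, a partner of VHL, averaged 82.3 ± 5.35 TPM with HFPO-TA and 70.7 ± 7.52 TPM with DMSO (adjusted p = 0.396). VHL averaged 18.3 ± 1.45 TPM with HFPO-TA and 19.9 ± 2.21 TPM with DMSO, ARNT 22.2 ± 2.09 and 21.7 ± 1.08, and HIF3A, a further alpha subunit, 31.5 ± 7.27 and 28.9 ± 7.08 TPM in the same order (SD, n = 3 each).

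Of 50 other HIF targets 48 were tested, with a median of -0.01. In 25.0% of the 48 the libraries of the groups did not overlap, 6 higher and 6 lower with HFPO-TA, against 17.9% of all tested genes. TFRC, the transferrin receptor, came nearest to a call, at 85.5, 90.2 and 91.9 TPM with HFPO-TA against 70.5, 69.5 and 64.7 TPM with DMSO (log2 fold change 0.38, SE 0.07, limma adjusted p = 0.063). It was called with the term for the header letter (limma adjusted p = 0.045), where 0.46% of all tested genes were called higher. TFRC was also called with a minimum of 5 TPM and among protein-coding genes alone, where 130 and 110 genes in all were called changed. It was not called in replicates 2 and 3 alone (limma adjusted p = 0.0518). With the replicate number as a block TFRC was not called either (limma adjusted p = 0.109). Of the 6 fits that each leave out 1 library, 1 called it. AK3, a mitochondrial adenylate kinase, averaged 64.3 ± 10.2 TPM with HFPO-TA and 49.0 ± 0.79 TPM with DMSO (adjusted p = 0.244). AK4, another adenylate kinase of the same list, averaged 163 ± 9.53 TPM with HFPO-TA and 160 ± 7.57 TPM with DMSO (limma adjusted p = 0.928). STC1, a secreted glycoprotein, averaged 18.4 ± 3.64 TPM with HFPO-TA and 27.6 ± 0.74 TPM with DMSO (adjusted p = 0.122), and IGFBP3, an IGF carrier, 191 ± 18.1 and 227 ± 8.20 TPM in the same order (adjusted p = 0.244). In replicates 2 and 3 alone STC1 was called lower (log2 fold change -0.73, adjusted p = 0.0355) and AK3 higher (0.50, adjusted p = 0.0385), as were 0.907% and 0.511% of all tested genes. With the term for the header letter STC1 and AK3 were not called (limma adjusted p = 0.0688 and 0.104). The replicate number as a block gave no call of them either (limma adjusted p = 0.145 and 0.184). Each was called in 1 of the 6 fits that leave out 1 library. Without HFPO-TA replicate 1, STC1 was called lower (adjusted p = 0.0189), and HKDC1, TFRC and AK3 were called higher (adjusted p = 0.0338, 0.0397 and 0.022). In that setting 291 of all 15664 tested genes were called, against 77 with all libraries. With all libraries the groups of HKDC1 overlapped, and it stood at 5.29 TPM in HFPO-TA replicate 1 against 5.41 TPM in DMSO replicate 1. PDK1, a kinase that inhibits pyruvate dehydrogenase, averaged 5.09 ± 0.48 TPM with HFPO-TA and 4.93 ± 1.32 TPM with DMSO, DDIT4, a brake on mTOR, 180 ± 1.97 and 174 ± 4.55, and ANGPTL4 18.4 ± 2.18 and 17.7 ± 0.11 TPM in the same order (SD, n = 3 each).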

How the data were processed

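RNA was sequenced from 3 HFPO-TA and 3 DMSO libraries. Per the submitters' processing notes, the build was GRCh38.p13 and the tools included RSEM, Bowtie2 and HISAT, without roles or versions. Kit, strand and annotation were not given in the sources used here. The values deposited by the authors are headed FPKM but sum to between 995690 and 996186 in each library, so they were read as TPM. TPM values hold no depth, which is therefore unknown, and counting intervals were not computed; 15383 to 15905 genes per library were at 1 TPM or more.

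The filter kept genes that reached 1 TPM in any 3 libraries. limma 3.58.1 (R 4.3.3) was fitted to log2(TPM + 1) with treatment as the term and a trended, robust variance. Calls are 2-sided, at a Benjamini-Hochberg adjusted p under 0.05 over all 15664 tested genes. The scale understates changes of low genes. The fit was tested on simulated data with independent noise in each library and no shift of replicate 1. That test set a pass mark only for changes larger than any measured in the genes described here.

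The genes and lists were chosen with earlier results of these data known. Values per library are given for genes that were called, did not overlap, had one of the 3 smallest p in their group of genes or the largest difference there; those of LDHA, HK2, EGLN1, ANKRD37, CA9, PKLR, TFRC and NANOGP1 were added after they were seen. From the wider lists, the 2 genes with the smallest p in each direction and further genes chosen by name are given; some genes are not reported here. Shares within families were compared with exact permutation tests over libraries. Positions are from GENCODE 29, promoter windows from RefSeq (GRCh38.p14). Coding sequences were aligned with Biopython 1.88. Alternatives covered pseudocount, filter, scaling, variance, covariates, gene type and libraries left out.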

Additional observations from a re-analysis of the deposited data

How the results depend on the processing

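With the term for the header letter 2 of the 35 tested genes were called (1 higher, 1 lower), without replicate 1 of both groups 2 (both lower), and with 1 library left out 0 to 1 (0 to 1 lower). With the replicate number as a block (replicate block) 1 gene was called, ALDOC (lower, adjusted p = 0.0392). The labels state no pairing, so the replicate numbers were not taken to pair libraries. Same-numbered libraries deviated from their group means together at r = 0.184, 0.123 and 0.028. Replicate 3 of HFPO-TA correlated more with DMSO replicate 2 (0.068). With so few libraries in a group, these values cannot decide whether same-numbered libraries were paired. In the remaining settings 0 were called. Over all genes 77 were called, against 10 without a filter, 29 with a minimum of 0.1 TPM, 130 with 5 TPM, 39 with upper-quartile scaling, 30 when scaled by median of ratios, 11 with neither trend nor robust variance, 30 with the block, 207 with the term and 222 without replicate 1 of both groups; leaving out 1 library gave between 6 (HFPO-TA replicate 2 left out) and 291 (HFPO-TA replicate 1 left out), and each of the other 4 gave fewer than with all libraries. The median log2 fold change of the HIF targets ran from -0.001 (without DMSO replicate 1) upward to its highest value with 1 library left out, 0.104, against 0.093 with all libraries; that of the glycolysis genes moved by less than the spread between libraries in all settings tried. Of the 15 genes named by rule, 13 kept their sign in all 17 settings. HIF1A turned to -0.059 without replicate 1 of both groups and ran from -0.071 to 0.073 with 1 library left out; SLC16A3 ran from -0.030 to 0.364. These fits hold fewer libraries; otherwise the cause was not tested. Depth is unknown in TPM, so the precision of low genes such as CA9 and ANKRD37 rests on the spread between libraries alone.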
